A study of Mus musculus with 5 samples.

Results

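Transcripts of 9 homing and adhesion receptors were examined in haematopoietic stem cells (HSCs) sorted from mouse bone marrow. The genes were Cxcr4, Itga4, Itga5, Itga6, Itgal, Itgb1, Itgb2, Selplg and Cd44. They were chosen by gene name from a table of 55335 genes and 5 libraries, and each name matched 1 row. In the order of the list they encode a chemokine receptor, 4 integrin alpha chains, 2 integrin beta chains, the ligand of P-selectin and the hyaluronan receptor.

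Each library was made from a pool of 80 to 90 HSCs, as given by the number at the end of its name, from mice at 3 weeks of age. HSCs had been sorted as lineage-negative, Kit+, Sca-1+ cells (KSL) that carry CD150 and lack CD48. The 3 wild-type libraries were compared with 2 RankCre-ki libraries, whose mice had the genotype RankCre-ki/wt;Csf1rfl/-, with Cre in the Rank locus (Tnfrsf11a), 1 floxed and 1 null allele of Csf1r. The study describes this Cre as active in macrophages of embryonic origin and inactive in HSCs. The labels name no further allele for the wild-type mice and do not say whether libraries came from separate mice, so a p-value measures the spread between these libraries. Values are TPM, the length-corrected share of a gene in all transcripts of its library.

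HSCs settle in the marrow in steps that use different receptors. Selectins on the vessel wall slow a passing cell by binding sugar-bearing ligands such as PSGL-1 (Selplg) and forms of CD44. The chemokine CXCL12, released by stromal cells of the niche, then signals through CXCR4 and switches integrins to a state of high affinity. An integrin is a pair of 1 alpha and 1 beta chain. VLA-4 (Itga4 with Itgb1) binds VCAM-1 and fibronectin, VLA-5 (Itga5 with Itgb1) binds fibronectin, VLA-6 (Itga6 with Itgb1) binds laminins, and LFA-1 (Itgal with Itgb2) binds ICAMs. The comparison asks whether the transcripts of this machinery differ in HSCs of RankCre-ki marrow.

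Promoter sequences are shown for 3 receptors whose levels are described below: Cxcr4, the receptor of the niche chemokine, Itga5, whose levels did not overlap between the groups, and Itgb1, the shared chain of the VLA integrins. RefSeq promoter entries (build GRCm38.p6) matched 5 of the 9 genes, namely Cxcr4, Itga4, Itga5, Itgb1 and Cd44. No entry was matched for Itga6, Itgal, Itgb2 and Selplg. Each line gives the 250 bases before the start site in the direction of transcription, at chr1:128592300-128592549 on the minus strand for Cxcr4, chr15:103366792-103367041 on the minus strand for Itga5 and chr8:128685404-128685653 on the plus strand for Itgb1. Capitals mark matches on either strand. The GC box was searched as GGGCGG. The TATA box was searched as TATAAA. The core of the PU.1 motif was searched as GAGGAA.
Cxcr4: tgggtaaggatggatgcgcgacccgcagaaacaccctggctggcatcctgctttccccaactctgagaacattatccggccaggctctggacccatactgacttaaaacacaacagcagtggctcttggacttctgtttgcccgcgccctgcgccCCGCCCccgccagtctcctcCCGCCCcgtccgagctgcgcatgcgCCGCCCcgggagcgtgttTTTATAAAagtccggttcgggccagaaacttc
Itga5: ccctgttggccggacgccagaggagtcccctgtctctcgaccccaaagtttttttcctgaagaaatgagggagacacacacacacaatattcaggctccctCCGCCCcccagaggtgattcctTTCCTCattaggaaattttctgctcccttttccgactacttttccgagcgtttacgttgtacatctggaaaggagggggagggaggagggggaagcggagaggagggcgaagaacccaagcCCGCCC
Itgb1: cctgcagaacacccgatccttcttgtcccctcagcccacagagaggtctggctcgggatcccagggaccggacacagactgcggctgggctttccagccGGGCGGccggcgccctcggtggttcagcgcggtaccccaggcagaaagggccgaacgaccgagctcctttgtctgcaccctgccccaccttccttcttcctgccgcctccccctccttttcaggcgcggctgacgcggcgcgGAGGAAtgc
The Cxcr4 window held 3 GC boxes on the strand opposite to the printed one and 2 overlapping matches to the TATA box, 1 on each strand. The matches to the TATA box began 32 and 30 bases before the start site. The Itga5 window held 2 GC boxes and 1 PU.1 core, and the Itgb1 window held 1 of each. Among 32851 RefSeq promoter windows of the same length, 32.7% held a GC box, 12.4% a TATA box and 23.3% a PU.1 core. A pair of further motifs were searched, the RUNX core TGTGGT, which 14.0% of the windows held, and the E-box CACGTG, which 6.02% held. Of the 5 matched genes, Itga4 alone held a RUNX core, and none held the E-box. The share of G and C was 61.2% for Cxcr4, 55.6% for Itga5 and 68.0% for Itgb1, against a median of 52.4% over all windows. These letters describe the windows and say nothing about binding in HSCs.

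The libraries differed in ways that bear on every value below. Genes with at least 1 TPM numbered 9021 to 11084 per wild-type library, and 12801 and 16386 in RankCre-ki libraries 1 and 2. Mitochondrial transcripts took 14.7 to 21.02% of wild-type and 8.21 to 10.7% of RankCre-ki TPM. RankCre-ki library 2, labelled female, had 62.5 TPM of the Y-linked Eif2s3y and 0.0229 TPM of Xist, so values are also given without it. Library names form name series 1 (wild-type 1 and RankCre-ki 2) and name series 2 (wild-type 2 and 3 and RankCre-ki 1), whose make-up matches the sets of libraries that the study's methods assign to different tagmentation kits. That the series are these sets is inferred from this alone. Wild-type library 1, labelled male, had 41.6 TPM of Eif2s3y and 0.0273 TPM of Xist, so that both libraries of series 1 held Y-linked transcripts, while the 3 libraries of series 2, labelled female, had 5.16 to 22.5 TPM of Xist and at most 0.288 TPM of Eif2s3y. Sex by transcripts and name series therefore cannot be told apart. Tnfrsf11a stood at 0.0806 to 2.08 TPM in wild-type and 0.0811 and 1.47 TPM in RankCre-ki libraries, and Csf1r at 0 to 2.39 TPM against 17.5 and 6.46 TPM. Csf1r was thus higher, not lower, in the libraries labelled RankCre-ki, whose mice carry a null allele of it, and these levels do not check the genotype. Groups are named below by their labels.

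Of 10 HSC markers, 8 to 10 reached 1 TPM in each library, with Hoxb5 at 0 in wild-type libraries 1 and 3, and their summed level was 614 to 1119 TPM in wild-type and 669 to 1094 TPM in RankCre-ki libraries. The summed level of 16 genes of lineage-positive cells and Cd48 was 110, 200 and 262 TPM in wild-type HSCs and 341 and 707 TPM in RankCre-ki HSCs. Of these sums, the haemoglobin gene Hbb-bt alone held 36.2, 124 and 109 TPM in wild-type and 251 and 632 TPM in RankCre-ki HSCs. The other haemoglobin gene, Hba-a1, had 31.6, 0 and 3.78 TPM against 1.58 and 2.87 TPM. Of these 16 genes, 7 were tested, and 4 of the 7 had both RankCre-ki libraries above all wild-type libraries, against 18.8% of all tested genes. Tested genes reached 1 TPM in 2 or more libraries. Cd48, Klrb1c and S100a8 reached it in no wild-type library, so a higher level in RankCre-ki was a condition of their being tested. The 4 of 7 can therefore not be read against that share. Besides Hbb-bt, the 4 were Cd48, Klrb1c and S100a8. Cd48 was listed at 0 for wild-type and stood at 4.92 and 5.62 TPM in RankCre-ki HSCs. The natural killer cell marker Klrb1c had 0.0516, 0 and 0 TPM against 4.398 and 12.8 TPM. The neutrophil gene S100a8 had 0.0677, 0 and 0 TPM against 8.31 and 12.9 TPM. S100a9 went the other way, with 2.17, 0 and 0 TPM in wild-type and 0 in both RankCre-ki libraries. The B cell gene Cd79b had 30.8 to 147 TPM in the 5 libraries, with overlap, whereas Cd79a, Ly6g and Ncr1 were at 0 in all of them. The sums were 246 to 313 TPM in wild-type and 165 to 364 TPM in RankCre-ki libraries for 15 macrophage and osteoclast genes, and 50.8 to 198 TPM and 150.0 to 169 TPM for 10 megakaryocyte genes. For 13 stromal and endothelial genes they were 6.22 to 14.0 TPM and 19.0 to 24.4 TPM. The part of the libraries' breadth and of these markers in the differences below was not tested. In pooled cells, fewer cells with a transcript and less of it per cell cannot be told apart.

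The 9 receptors spanned a wide range of levels, with Selplg highest and Itgal lowest on average. Mean levels over the 5 libraries, in TPM, were 92.4 for Selplg, 58.003 for Itgb1, 26.5 for Itga6, 23.5 for Cd44, 22.7 for Itga4, 16.7 for Itgb2, 5.14 for Itga5, 4.53 for Cxcr4 and 1.09 for Itgal. Selplg was the highest of the 9 in each library and Itgal the lowest in 4, with Itgb2 lowest in wild-type library 2. On the scale of log2(TPM + 1), Selplg exceeded Itgb1 by 0.73 ± 0.38 (SD, n = 5) and in 5 of 5 libraries. Itgb1 exceeded Itga6 by 1.07 ± 0.52, and Cxcr4 exceeded Itgal by 1.73 ± 0.95, again in each library. The other neighbours in this order, from Itga6 down to Cxcr4, differed by less than 1 SD of their difference. Their order is therefore not set by these libraries. Selplg lay above 89.5% of tested genes in mean level and Itgb1 above 84.1%, whereas Itga5 lay above 33.7% and Cxcr4 above 31.1%. The summed level of the 9 receptors was 195, 151 and 275 TPM for wild-type and 337 and 294 TPM in RankCre-ki HSCs, and 8 of the 9 reached 1 TPM in each library.

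**Figure D1:**
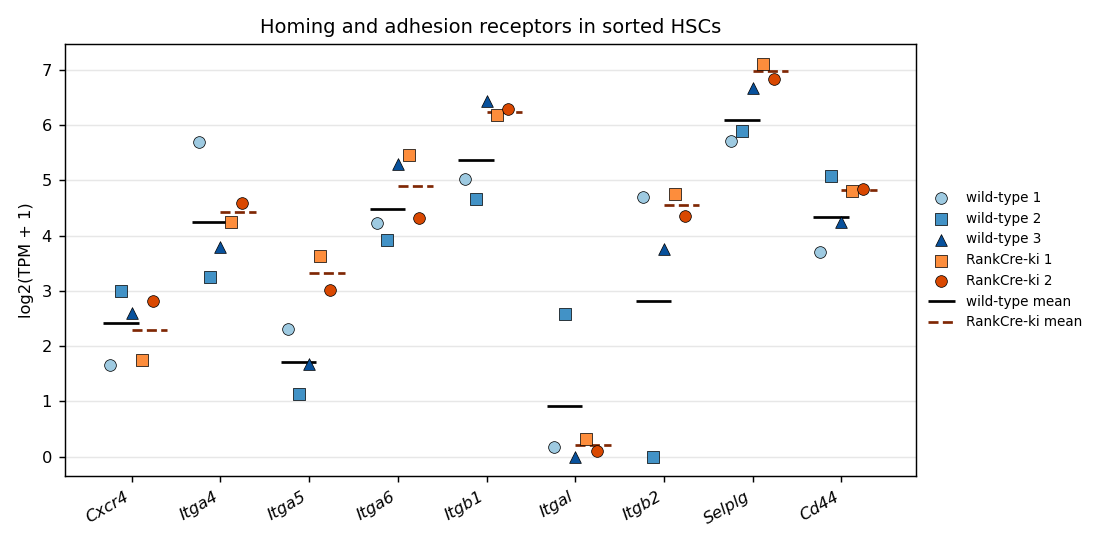
Level of each receptor on a log2(TPM + 1) scale in the 3 wild-type libraries (blue) and the 2 RankCre-ki libraries (orange), with the marker shape giving the name series (circle, series 1, other shapes, series 2) and lines at the group means. The RankCre-ki points lie above all wild-type points for Selplg and Itga5, the other 7 receptors overlap, and Itgb2 is at 0 in wild-type library 2.

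Between genotypes, no receptor passed the limma test against the spread between libraries, and most were higher on average in RankCre-ki HSCs, as were most genes of the table. The limma test on log2(TPM + 1) took genes that reached 1 TPM in 2 or more libraries, 13981 genes and 8 of the 9 receptors (all but Itgal). A call needed an adjusted p of at most 0.1, by Benjamini-Hochberg over all tested genes, and an absolute log2 fold change above 2, the threshold of the study. The study applied this threshold to read counts with DESeq2, a different test, and reported genes past it in both directions. By limma, 0 of 8 receptors were called, against a background of 0.0% (0 of 13981 genes). At an unadjusted p under 0.05 it was again 0 of 8, against 6.87% of all tested genes. Log2 fold changes (RankCre-ki minus wild-type) were above 0 for 7 of 8 receptors, against 72.3% of all genes, but for 4 of 8 under median-ratio scaling (each library divided by its median ratio to the geometric means of genes above 0 in all libraries) and 6 of 8 under quantile normalization, where 57.4% and 46.7% of all genes were above 0. Their median was 0.67, and that of all genes was 0.52. Under the same scalings the median of all genes was 0.17 and -0.09. Without wild-type library 2 the receptor median was 0.42, beside 0.39 for all genes. Without wild-type library 3 it was 0.995, beside 0.61 for all genes. Relative to the all-gene median of 0.52, 4 receptors lay above and 4 below.

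Both RankCre-ki values exceeded every wild-type value for 2 of 8 receptors, Selplg and Itga5, against 18.8% of all genes. Both lay below every wild-type value for 0 of 8, against 3.71%. The count of 2 is close to what the background gives for 8 genes. Differences were above 0 within both name series for 5 of 8 receptors, against 44.5% of genes, and below 0 within both for 0, against 12.9%.

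**Figure D2:**
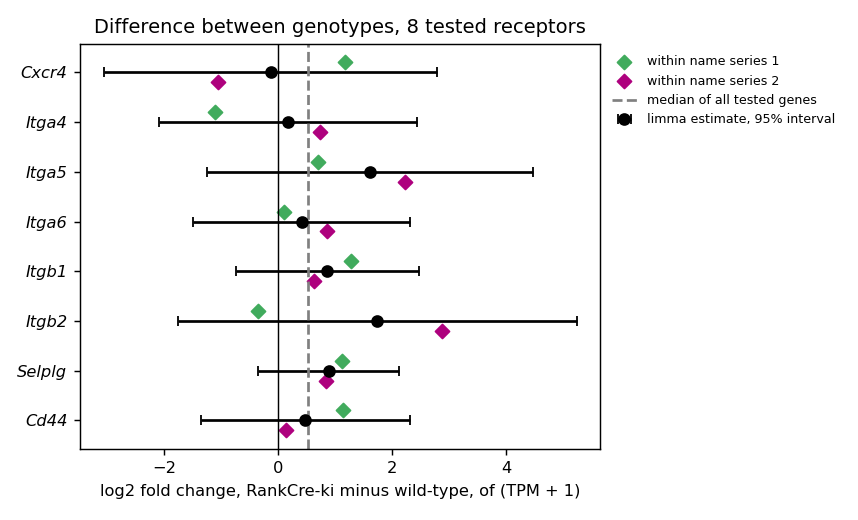
Log2 fold change of (TPM + 1), RankCre-ki minus wild-type, for the 8 tested receptors, as the limma estimate with its 95% interval (black) and as the difference within name series 1 (green) and 2 (purple). Each interval includes 0, the differences of Cxcr4, Itga4 and Itgb2 have opposite signs in the name series, and the dashed line marks the median of all tested genes at 0.52.

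Cxcr4, the receptor for CXCL12, was low in these HSCs and overlapped between genotypes. The gene (ENSMUSG00000045382) lies on the minus strand of chromosome 1 (GRCm38, 128588199 to 128592293) with 2 exons. Its level was 2.14, 6.99 and 5.09 TPM in wild-type HSCs and 2.36 and 6.08 TPM in RankCre-ki HSCs. Both groups thus held a library near 2 TPM and a library above 6 TPM. The log2 fold change was -0.13 ± 1.27 (SE), with a 95% interval of -3.06 to 2.79 and a limma adjusted p of 0.996. Within the name series the sign differed, with RankCre-ki higher by 1.17 in series 1 and lower in series 2 (a difference of -1.05 on the log2 scale). Without RankCre-ki library 2 the value was -0.67, and it turned to 0.40 without RankCre-ki library 1 and to 0.16 without wild-type library 2. Under median-ratio scaling it was -0.51, and under quantile normalization -1.12. Changes of up to several-fold in either direction are within the interval, so a difference in Cxcr4 was not detectable with these libraries.

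The VLA integrins share the beta chain Itgb1 (ENSMUSG00000025809), on the plus strand of chromosome 8 (128685654 to 128733200, 17 exons as merged blocks). Itgb1 was the most abundant integrin transcript on average, at 31.5, 24.4 and 85.3 TPM in wild-type and 71.5 and 77.3 TPM in RankCre-ki libraries. Wild-type library 3 was the highest of all, so the groups overlapped. For Itgb1 the log2 fold change was 0.86 ± 0.70 (limma adjusted p = 0.924), with 1.27 and 0.63 within series 1 and 2 and 0.81 without RankCre-ki library 2. It was 0.51 without wild-type library 2, 1.39 without wild-type library 3 and 0.36 under median-ratio scaling.

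Itga5 (ENSMUSG00000000555, chromosome 15, 103344286 to 103366763, minus strand), the alpha chain of the fibronectin receptor VLA-5, was 1 of the 2 receptors without overlap. It stood at 3.97, 1.18 and 2.19 TPM for wild-type and 11.3 and 7.05 TPM in RankCre-ki HSCs, which is 2.45 ± 1.41 (SD, n = 3) against 9.19 ± 3.03 TPM (SD, n = 2). Both RankCre-ki values exceeded the highest wild-type value. The log2 fold change of 1.61 ± 1.24 had a 95% interval of -1.25 to 4.47 and a limma adjusted p of 0.916. It was 0.70 and 2.22 within series 1 and 2, and 1.92 without RankCre-ki library 2. Under quantile normalization it was 0.54.

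Itga4 (ENSMUSG00000027009, chromosome 2, 79255426 to 79333123, plus strand), the VLA-4 chain that binds VCAM-1, was highest in wild-type library 1 and had no stable direction. Its level was 50.9, 8.48 and 12.9 TPM in wild-type HSCs and 18.0 and 23.2 TPM in RankCre-ki HSCs. Both RankCre-ki values lay between wild-type libraries 1 and 3. In the fit the log2 fold change was 0.18 ± 0.98 (limma adjusted p = 0.993), with -1.10 and 0.73 within series 1 and 2, and 0.90 without wild-type library 1. It was 0.00063 without RankCre-ki library 2 and -0.32 without wild-type library 2. The value of Itga4 is uncertain for a further reason, because 1124 of its exonic bases overlap the gene Cerkl on the opposite strand and the use of strand was not stated. Cerkl was listed at 0, 5.01 and 21.5 TPM in wild-type and 30.2 and 5.11 TPM in RankCre-ki libraries.

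Itga6 (ENSMUSG00000027111, chromosome 2, 71745616 to 71858416, plus strand), the laminin-binding chain, was higher than Itga4 and Itga5 in mean level over the 5 libraries. In wild-type alone its mean was 23.4 TPM, beside 24.1 TPM for Itga4, so their order is not set. It stood at 17.7, 14.1 and 38.4 TPM in wild-type and 43.0 and 19.1 TPM in RankCre-ki libraries. The highest and lowest libraries of both groups interleaved. Its log2 fold change was 0.41 ± 0.82 (limma adjusted p = 0.990), 0.98 without RankCre-ki library 2 and -0.16 without RankCre-ki library 1. It was 0.13 without wild-type library 2 and 0.82 without wild-type library 3.

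The leukocyte integrin LFA-1 was uneven at the transcript level, and each chain was at or near 0 in some libraries. The beta chain Itgb2 (ENSMUSG00000000290, chromosome 10, 77530252 to 77565708, plus strand), which also pairs with Itgam, had 25.1, 0 and 12.6 TPM in wild-type and 26.1 and 19.5 TPM in RankCre-ki libraries. Wild-type library 1 lay between the RankCre-ki values, and the other two wild-type libraries lay below both. The log2 fold change of 1.73 ± 1.52 (limma adjusted p = 0.934) rested on wild-type library 2, since it was 0.32 without that library. It was 2.68 without wild-type library 1 and 1.94 without RankCre-ki library 2, and -0.35 and 2.88 within series 1 and 2. The alpha chain Itgal (ENSMUSG00000030830, chromosome 7, 127296260 to 127335138, plus strand) had 0.128, 5.01 and 0 TPM in wild-type and 0.248 and 0.0777 TPM in RankCre-ki libraries. Only wild-type library 2 exceeded 1 TPM, and it was the library with Itgb2 at 0. In every library 26 of 26 core proteasome and RNA polymerase II subunit genes were above 0. Such genes do not tell whether another transcript was missed in wild-type library 2, which listed the fewest genes (9021 with at least 1 TPM). Whether the 0 of Itgb2 is a missed transcript was not tested.

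Selplg, which encodes the selectin ligand PSGL-1, was the most abundant of the 9 receptors and had the smallest p. The gene (ENSMUSG00000048163) lies on the minus strand of chromosome 5 (113818536 to 113832644, 3 exons). Its level was 51.7, 58.4 and 100.5 TPM for wild-type and 137.5 and 113.7 TPM in RankCre-ki HSCs, or 70.2 ± 26.4 (SD, n = 3) against 125.6 ± 16.9 TPM (SD, n = 2). Both RankCre-ki values were above every wild-type value, with wild-type library 3 close beneath. The log2 fold change was 0.89 ± 0.53, with a 95% interval of -0.35 to 2.12 and a limma adjusted p of 0.881. It was 1.12 and 0.83 within series 1 and 2, 1.02 without RankCre-ki library 2 and 0.38 under median-ratio scaling. Within the receptors, Selplg took 26.5, 38.6 and 36.5% of the summed level in wild-type and 40.8 and 38.7% in RankCre-ki libraries.

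Cd44 (ENSMUSG00000005087, chromosome 2, 102811141 to 102901665, minus strand), the hyaluronan receptor, stood at 12.0, 32.8 and 18.0 TPM in wild-type and 27.0 and 27.6 TPM in RankCre-ki libraries. Wild-type library 2 was above both RankCre-ki libraries, which differed little from each other. The log2 fold change was 0.48 ± 0.80 (limma adjusted p = 0.987), 0.46 without RankCre-ki library 2, 0.16 without wild-type library 1, 0.85 without wild-type library 2 and -0.0097 under median-ratio scaling.

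A ratio of alpha to beta chain within a library changes little when all values of the library are divided by the same factor. It was computed from TPM + 1 for 4 pairs. Quantile normalization is not such a division, and the ratios were not computed under it. Under it the log2 fold change was 0.54 for Itga5 and 0.65 for Itgb1. The log2 ratio of Itga4 to Itgb1 was 0.68, -1.42 and -2.64 in wild-type and -1.93 and -1.69 in RankCre-ki libraries. That of Itga6 to Itgb1 was the steadiest in wild-type, at -0.79, -0.75 and -1.13, and stood at -0.72 and -1.96 in RankCre-ki. The log2 ratio of Itga5 to Itgb1 was -2.71, -3.54 and -4.76 against -2.56 and -3.28. In every library Itga5 was thus the scarcer partner. The log2 ratio of Itgal to Itgb2 was -4.53, 2.59 and -3.77 in wild-type and -4.44 and -4.25 in RankCre-ki, the one positive value being that of wild-type library 2. Differences of group means (RankCre-ki minus wild-type) were -0.68 for Itga4, 0.75 for Itga5, -0.45 for Itga6 and -2.44 for Itgal, and the groups overlapped for each pair. Exact two-sided permutation tests gave p = 0.8, 0.4, 0.8 and 0.6, or 0.8 for each pair after Benjamini-Hochberg adjustment over the 4 pairs, in a design that cannot go below 0.2. The sign turned for Itga4 without wild-type library 1 (0.22) and for Itga6 without RankCre-ki library 2 (0.17). The difference for Itga5 was 0.21 without wild-type library 3, 0.39 without RankCre-ki library 1 and 1.23 without wild-type library 1. That for Itgal was -0.20 without wild-type library 2 and -3.76 without wild-type library 1.

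**Figure D3:**
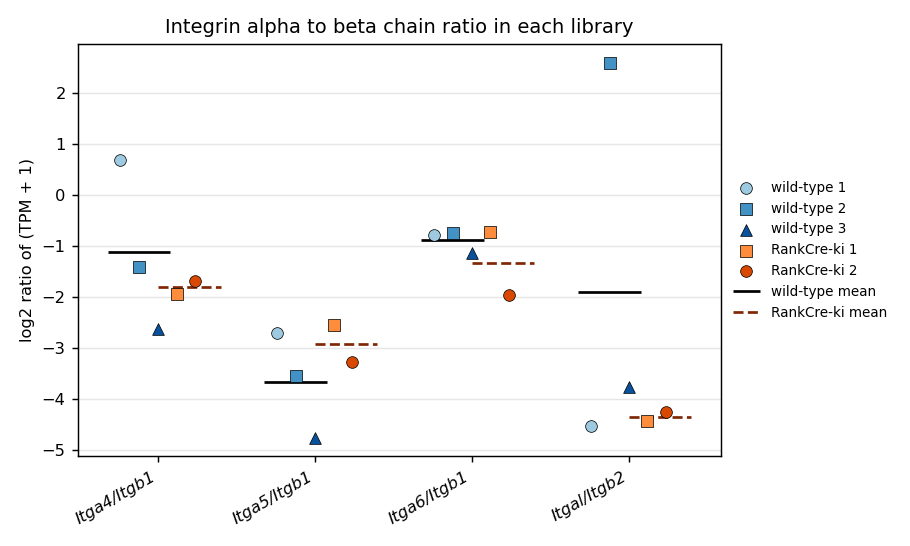
Log2 ratio of (TPM + 1) of the alpha chain to that of the beta chain for each of 4 integrin pairs in each library, with lines at the group means. Wild-type and RankCre-ki libraries overlap for all 4 pairs, and wild-type library 2 stands apart at 2.59 for Itgal to Itgb2.

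A set of 8 further lists covers the rest of this machinery and holds 158 genes, of which 104 were tested. By limma, 0 of them had an adjusted p of at most 0.1. At an unadjusted p under 0.05, 9 were higher in RankCre-ki and 0 lower, against 6.34% and 0.529% of all tested genes. Of the 9, Fut4, Fut7, Selp and Spp1 had met the filter on low values through the RankCre-ki libraries alone, so a higher level there was a condition of being tested. The count was 7 without RankCre-ki library 2, 2 without RankCre-ki library 1 and 17 without wild-type library 1. With 1 RankCre-ki library left, these 4 genes no longer meet the filter and are not tested. Log2 fold changes were above 0 for 81 of the 104 and below 0 for 23, against 72.3% of all genes above 0. The median was 0.69, beside 0.52 for all genes. Under median-ratio scaling 65 of 103 were above 0, and under quantile normalization 57 of 104, against 57.4% and 46.7% of all genes. The medians were then 0.21 and 0.18, beside 0.17 and -0.09 for all genes.

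Of 14 other integrin alpha chains 3 reached the level for testing, and of 6 other beta chains 2. The highest in mean level was the alpha chain Itgav, chosen after its values were seen, with 4.80 to 15.9 TPM in wild-type and 8.81 to 12.1 TPM in RankCre-ki libraries. Itga2b, the platelet integrin chain also found on stem cells, had 0.820, 10.1 and 0.988 TPM in wild-type and 13.9 and 6.16 TPM in RankCre-ki libraries, with overlap. Itgb7, an alternative partner of Itga4, had 9.43, 0 and 9.43 TPM against 5.85 and 21.1 TPM. Itgb3, the partner of Itga2b, stayed at 0 to 1.42 TPM in the 5 libraries. Itgam, which encodes the lineage marker CD11b, was at 0.0198 to 0.187 TPM in 4 libraries and at 7.30 TPM in RankCre-ki library 2. The 2 smallest p of the lists belonged to Itga2b and Itga9 (0 to 2.00 TPM) among the alpha chains, and to Itgb5 (0 to 2.77 TPM) and Itgb7 among the beta chains.

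Of 21 tested genes that activate integrins or link them to actin, 15 had log2 fold changes above 0 and 6 below, against 72.3% of all genes above 0. Under quantile normalization it was 10 and 11, against 46.7% of all genes above 0. Both RankCre-ki values exceeded every wild-type value for 5 of the 21, against 18.8% of all genes. Fermt3, the kindlin of blood cells that activates integrins from inside, had 114, 17.1 and 82.9 TPM in wild-type and 242 and 218 TPM in RankCre-ki libraries. The groups did not overlap, and the log2 fold change was 2.04 ± 0.80 (limma adjusted p = 0.638), or 1.23 without wild-type library 2. Zyx, a focal adhesion protein, had 47.4, 8.07 and 36.7 TPM against 94.995 and 70.3 TPM, again without overlap (1.70 ± 0.85, limma adjusted p = 0.835, and 0.95 without wild-type library 2). Both were lowest in wild-type library 2, where Itgb2 was at 0. Rap1b, the small GTPase upstream of talin, was lower on average, with 56.2, 153 and 181 TPM against 60.5 and 40.7 TPM, and overlapped (-1.21 ± 0.65, limma adjusted p = 0.870). Talin itself (Tln1) had 15.9, 8.22 and 48.9 TPM against 30.4 and 68.2 TPM. Without RankCre-ki library 2 the values were 2.12 for Fermt3, 1.91 for Zyx and -0.93 for Rap1b. The median log2 fold change of the list was 0.51, beside 0.52 for all genes.

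Of 24 tested genes around CXCR4, 20 had log2 fold changes above 0 and 4 below, against 72.3% of all genes above 0. Their median was 0.74, beside 0.52 for all genes, and 16 or more were above 0 under each other scaling. Both RankCre-ki values exceeded every wild-type value for 5 of the 24, against 18.8% of all genes. The ligand Cxcl12 was at most 0.0310 TPM in any library, and the second CXCL12 receptor Ackr3 was listed at 0 except for 0.255 TPM in RankCre-ki library 2. Rac2, a GTPase of blood cells that acts in migration, had 145, 115 and 177 TPM in wild-type and 466 and 250.4 TPM in RankCre-ki libraries, without overlap (1.25 ± 0.47, limma adjusted p = 0.611, and 0.80 without RankCre-ki library 1). Rgs14, a regulator of G protein signalling, had 0.0815, 3.44 and 1.96 TPM against 19.0 and 17.5 TPM (2.99 ± 1.30, limma adjusted p = 0.725). Both genes were higher in RankCre-ki within each name series, and without RankCre-ki library 2 the values were 1.69 for Rac2 and 3.05 for Rgs14. The G protein subunit Gnai2, which couples to CXCR4, had 38.9, 44.6 and 61.3 TPM against 52.7 and 29.6 TPM and overlapped.

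The list of selectins, their ligands and the enzymes that build these gave 4 of the 9 genes at an unadjusted p under 0.05. All 4 were higher in RankCre-ki, among 18 tested, against 6.34% of all tested genes. Log2 fold changes were above 0 for 15 of the 18 (13 under each other scaling), against 72.3% of all genes. The median was 1.13, beside 0.52 for all genes. The count rests on low genes: 3 of the 4 met the filter through the RankCre-ki libraries alone, and without either RankCre-ki library these 3 are no longer tested. That leaves 1 gene, Tpst2, so the count of 4 cannot be read against the share of all genes. Fut7, the fucosyltransferase that completes the sugar bound by selectins, was listed at 0 for wild-type and had 2.58 and 15.9 TPM in RankCre-ki HSCs (limma adjusted p = 0.521). Fut4, a related enzyme, had 0.00477, 0 and 0 TPM in wild-type and 2.17 and 3.40 TPM in RankCre-ki libraries, with the same adjusted p by limma. P-selectin (Selp), named after its values were seen, had 0.0333, 0 and 0 TPM against 1.84 and 4.93 TPM. These genes are low or at 0 in wild-type libraries that also list fewer genes. Tpst2, a sulfotransferase that acts on PSGL-1 and was likewise named after its values were seen, was well expressed, with 44.7, 40.2 and 52.0 TPM in wild-type and 151 and 119.9 TPM in RankCre-ki libraries. Its groups did not overlap, and the log2 fold change was 1.55 ± 0.52 (limma adjusted p = 0.532), with 1.40 and 1.70 within series 1 and 2 and 1.71 without RankCre-ki library 2. Gcnt1, which builds the branched sugar core on PSGL-1, overlapped at 5.18, 26.2 and 27.8 TPM against 16.8 and 10.6 TPM. The selectin ligands Spn (CD43) and Cd34 overlapped, with 24.0 to 46.0 TPM against 34.5 to 35.5 TPM for Spn and 40.2 to 89.2 TPM against 84.6 to 149 TPM for Cd34.

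**Figure D4:**
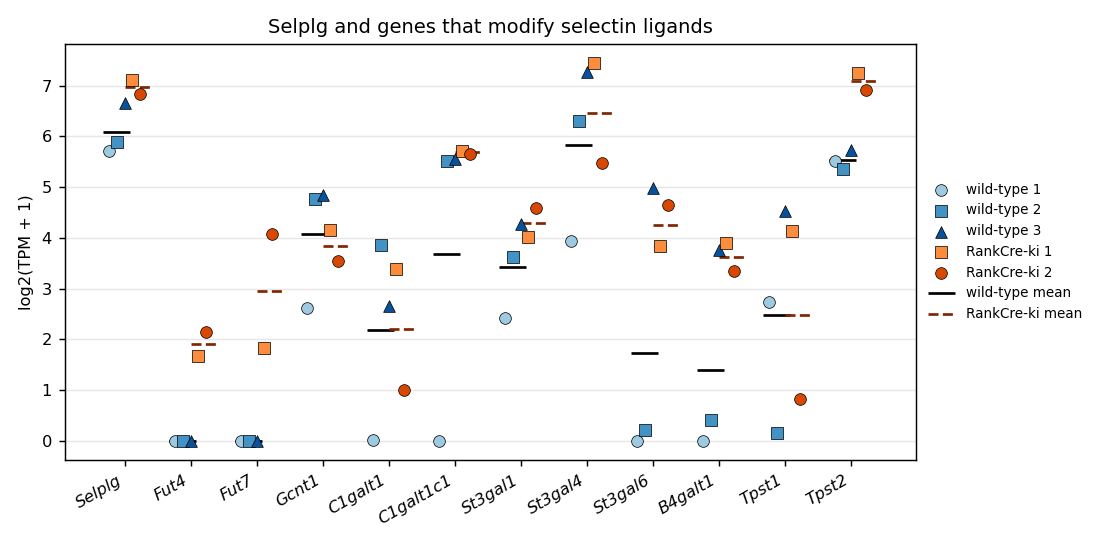
Levels on a log2(TPM + 1) scale of Selplg and of genes for enzymes that modify selectin ligands, in the 3 wild-type (blue) and 2 RankCre-ki (orange) libraries, with lines at the group means. Fut4, Fut7 and Tpst2 show both RankCre-ki libraries above the wild-type ones, Fut4 and Fut7 from wild-type levels at or near 0, whereas Gcnt1 overlaps.

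Among 22 other tested niche receptors and adhesion proteins of HSCs, 14 had log2 fold changes above 0 and 8 below, against 72.3% of all genes above 0. Under median-ratio scaling it was 10 and 12, against 57.4% of all genes above 0. Both RankCre-ki values exceeded every wild-type value for 4 of the 22, against 18.8% of all genes. Esam, an endothelial and stem cell adhesion molecule, had 10.9, 9.73 and 32.4 TPM in wild-type and 137 and 94.0 TPM in RankCre-ki libraries. The groups did not overlap, and the log2 fold change was 2.82 ± 0.76 (limma adjusted p = 0.521), with 2.99 and 2.86 within series 1 and 2 and 3.08 without RankCre-ki library 2. Of 8 tested counter-receptors and matrix ligands, Spp1 (osteopontin) was at most 0.0318 TPM in wild-type and 5.62 and 1.12 TPM in RankCre-ki libraries (limma adjusted p = 0.580). Lama5 had 0 to 14.2 TPM in wild-type and was listed at 0 in RankCre-ki libraries, and Vcam1 had 0.0377 to 9.62 TPM against 1.27 to 2.35 TPM. Of 21 other chemokine receptors 6 were tested. Ccrl2 had 0, 14.3 and 4.59 TPM against 21.7 and 27.997 TPM, and Cxcr2 overlapped at 0.0762 to 3.22 TPM against 2.24 to 3.70 TPM.

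**Figure D5:**
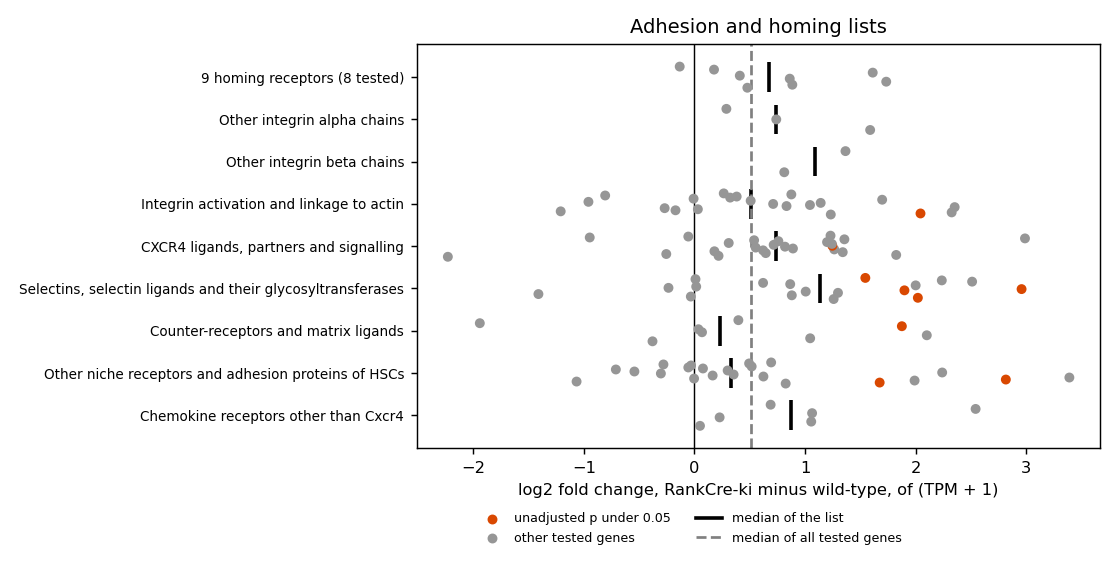
Log2 fold change of (TPM + 1), RankCre-ki minus wild-type, of each tested gene in the 9 receptors and the 8 lists, with a tick at each list's median and a dashed line at the median of all tested genes (0.52). The 8 tested receptors have a median of 0.67, none of them is among the 9 genes with an unadjusted p under 0.05 (red), and 4 of those 9 lie in the selectin list.

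For each receptor, the tested gene with the nearest profile was found by the root mean square difference of log2(TPM + 1), each centred on its mean over the 5 libraries. The nearest were Camk1 to Selplg (0.0631), Pou2f2 to Itgb1 (0.103), Iah1 to Itga6 (0.0720), Glipr1l1 to Cd44 (0.0695), Runx3 to Itga4 (0.0844), Ccdc43 to Itgb2 (0.166), Cpne8 to Itga5 (0.124) and Nln to Cxcr4 (0.133). Second came, in the same order, Aamp (0.0806), Phlpp2 (0.110), Gm21092 (0.105), Isca1 (0.0719), Gm20388 (0.0936), Sec24d (0.215), Arhgef18 (0.144) and Kif5b (0.177). The 9 receptors themselves were left out of the search, and the median distance over tested genes was 1.03 to 1.84. With 13981 genes and 5 libraries close profiles arise readily, and the libraries differ in breadth, so these names are a description.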

How the data were processed

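HSCs were sorted as pools, and per the labels and the study's methods poly(A) RNA was reverse transcribed with template switching, amplified and tagmented. The authors deposited TPM per gene in 1 table of 55427 rows. The software behind the TPM is not given in the sources used here. The submitters' processing notes name bcl2fastq 2.20.0 and featureCounts 2.0.1 with build mm10. TPM sum to the same total in each library and keep no depth, so no counting error can be given, and 179 positive values below 1e-06 TPM cannot come from whole fragments, so estimation was used. Paralogs and overlapping genes can then exchange signal. The 92 spike-in rows, all at 0, were removed. Of the gene identifiers, 99.7% were found in GENCODE M21 (GRCm38), which gave positions.

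Groups came from the titles. Values were compared as log2(TPM + 1), which understates changes of low genes, with limma 3.58.1 in R 4.3.3 (lmFit, eBayes with trend, 5 libraries, no covariate, two-sided) and Benjamini-Hochberg adjustment over 13981 genes. Count models were not used, because TPM are not counts. The code was tested on simulated data. Motifs were searched on both strands with python 3.11.15. Alternatives were other pseudocounts, filters and scalings, a fit without trend, replicate and name series blocks, and leaving out each library.

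The receptors, lists and tests were chosen with earlier results of these data known. Genes named are the 9 receptors, the 2 of each list with the smallest p, a set of 17 pathway genes and 5 label checks, and the 2 nearest profiles. Selp, Tpst2, Itgav, Klrb1c, S100a8, S100a9, Hbb-bt, Hba-a1 and Cd79b were added after their values were seen, and Cerkl for its overlap. Values of some genes that the rule names are not reported here. Replicate numbers do not pair the samples, since the labels give no shared origin.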

Additional observations from a re-analysis of the deposited data

How the results depend on the processing

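In none of the alternatives run was a receptor past the threshold, and the lowest limma adjusted p of any receptor under any of them was 0.460. Under median-ratio scaling the count of receptors above 0 fell from 7 to 4 and their median log2 fold change from 0.67 to 0.18, with -0.0097 for Cd44, -0.31 for Itga4 and -0.075 for Itga6. Itga4 was also below 0 under quantile normalization (-0.21), with name series as a block (-0.056), without wild-type library 3 (-0.049) and without wild-type library 2 (-0.32). Cxcr4 turned to 0.16 without wild-type library 2 and to 0.40 without RankCre-ki library 1, and Itga6 to -0.16 without RankCre-ki library 1. The lowest value of Cxcr4 was -1.12, under quantile normalization. Leaving out 1 library gave log2 fold changes of -0.67 to 0.40 for Cxcr4, -0.32 to 0.90 for Itga4 and -0.16 to 0.98 for Itga6, and moved the difference of the log2 chain ratio between -1.44 and 0.22 for Itga4 to Itgb1, between 0.21 and 1.23 for Itga5 to Itgb1, between -1.07 and 0.17 for Itga6 to Itgb1 and between -3.76 and -0.20 for Itgal to Itgb2, which was -3.81 with a pseudocount of 0.1 TPM. The list genes at an unadjusted p under 0.05, 9 in all, ranged from 2 to 17. For the selectin list alone, counted after its genes were seen, the 4 became 2 with no filter, 1 with a minimum of 5 TPM, 2 under quantile normalization and 0 to 6 on leaving out 1 library. At 5 TPM, and with 1 RankCre-ki library left, only 1 of the 4 was still tested. The cause of the other shifts was not tested. With 1 RankCre-ki library left, limma takes its spread from the wild-type libraries, and that library is assumed to vary as they do.

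With the replicate number as a block, Itga4 was at -0.049, the selectin count at 1 and 1 gene of the whole table was called, against 0. Same-numbered libraries deviated in opposite directions (correlations of -0.38 and -0.20), so the numbers do not pair them. Over the whole table, 17 genes were called without RankCre-ki library 1 and 8 without RankCre-ki library 2. Itgal could be tested with no filter only, at -0.71 (limma adjusted p = 0.792). The 5 libraries give 3 residual degrees of freedom, and TPM hold no depth.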
